A study of Mus musculus with 48 samples.

Results

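The 10-month A39 comparison sets 3 transgenic mice against 3 nontransgenic controls, which are 6 of the 48 cerebella in the series. The 6 arrays were taken by their titles, which name line A39 and an age of 10 months. The transgenic mice carry exon 1 of Htt, the huntingtin gene, with 142 glutamines joined to a nuclear exclusion signal (NES), a stretch that directs a protein out of the nucleus. The controls are littermates labelled wild type and carry no transgene. Control array 1 and transgenic arrays 1 and 2 come from animals of 10.5 months, and control arrays 2 and 3 and transgenic array 3 from animals of 10 months. Transgenic array 2 is from a female and the other 5 arrays are from males. Total RNA of the cerebellum was labelled with biotin and hybridised to Affymetrix MG-U74Av2 arrays, on which a probe set is a group of short probes for 1 transcript. The series asks what polyglutamine does to behaviour within the nucleus and away from it, with profiles at the age when rotarod deficits began and, for A39, again at this later age. The promoter of the transgene, the number of founders behind the line and the place of the protein in the cells are not given in the sources used here.

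Huntington's disease follows from a long glutamine stretch in huntingtin, and its best known target is the striatum rather than the cerebellum. In the cerebellum, Purkinje cells are the output neurons of the cortex. They receive parallel fibres from granule cells and are wrapped by Bergmann glia. Glutamate acting on their metabotropic receptor triggers inositol trisphosphate, which releases calcium from the endoplasmic reticulum. That calcium is bound by calbindin and parvalbumin, pumped back by the SERCA pumps and shapes synaptic strength. Microglia are the resident macrophages of the brain and make most of its C1q, the first component of complement, while astrocytes respond to injury with more of the filament protein Gfap.

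Cerebellar markers were present in all 6 arrays. Signals, in the deposited linear units, lay between 3263 and 7273 for Calb1 of Purkinje cells, between 8801 and 12763 for Zic1 of granule cells, between 7453 and 14049 for Aldoc of glia and a subset of Purkinje cells, and between 2362 and 4256 for Mobp of oligodendrocytes. Of the forebrain markers, Neurod6 lay between 20.9 and 73.1 and was left out as too dim. Drd2, a dopamine receptor, lay between 142 and 233. Pcp4, a further Purkinje marker, was also too dim on this array, at 23.0 to 75.6. The 6 arrays were scanned on 1 day from 1 chip lot, and each array's mean correlation with its 5 companions ran from 0.942 to 0.954. Control array 3 and transgenic array 3 were run on another fluidics station than the other 4. The mouse Htt probe set gave 1830, 1830 and 1667 in control arrays 1 to 3 and 1397, 1478 and 1818 in transgenic arrays 1 to 3. The groups overlapped, and the difference did not pass (log2 -0.19, SE 0.13, limma adjusted p = 0.677).

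Past the threshold, more probe sets fell than rose in the transgenic cerebellum. Whether past it or not, 2832 of the 5639 genes measured were higher and 2807 lower. Of 7453 probe sets tested, 141 (1.89%) changed at a limma adjusted p under 0.05, of which 46 (0.617%) were higher and 95 (1.27%) lower. The median difference over all probe sets was -0.0008 on the log2 scale, and that of the 141 was 0.77 in size. Beyond a 2-fold change lay 11 rises and 26 falls. The 3 transgenic arrays lay on 1 side of the 3 controls in 135 of the 141, against 1360 probe sets, or 18.2%, of all tested. All 141 kept their sign among the animals of 10.5 months, among those of 10 months and among the males. For the 135 without overlap this was fixed in advance, since any subset of the arrays keeps the sign. The number of calls depended on single animals. It was 91 or 80 with control array 1 or 2 left out and 88 or 82 with transgenic array 1 or 2 left out, and with age in months as a covariate it was 90. Fitted on the 6 arrays alone, with far fewer arrays behind the variance, it was 42 (7 higher and 35 lower), of which 41 were among the 141. Falls held up more often than rises, since 45 of 95 falls and 9 of 46 rises passed with each of the 6 arrays left out in turn. At the threshold itself, Nup88 of the nuclear pore (log2 -0.51, adjusted p = 0.0494) and the ribosomal gene Rpl6 (0.45, adjusted p = 0.0491) lay just inside, and Car4, a carbonic anhydrase (-0.51), and Uros of haem synthesis (-0.50) lay just outside at 0.0513 each.

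**Figure D1:**
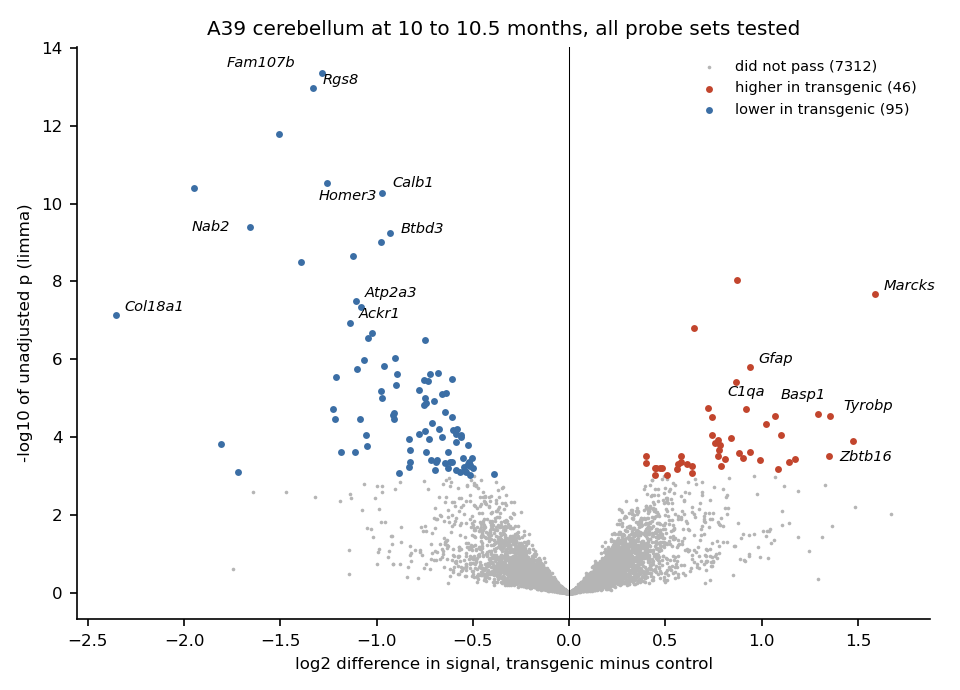
Each point is 1 probe set, placed by its log2 difference between 3 transgenic and 3 control arrays (horizontal) and by -log10 of its unadjusted limma p (vertical). Blue marks the 95 that fell and red the 46 that rose, and the falls reach the smaller p-values.

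Purkinje cell genes made up the deepest shift. Of 15 measured markers of these cells 12 fell, 0 rose and 3 did not pass the limma test, with a median log2 difference of -0.83. Over all 5639 genes measured, 70 fell, 39 rose and the median was 0.0013. All 15 markers were lower with no overlap of the groups, as were 503 of all 5639 genes. The mean of the list, against the control mean, was between -0.04 and 0.07 in the controls and -0.72, -0.88 and -0.92 in transgenic arrays 1 to 3, so each transgenic animal carried the shift. Leaving out any 1 array left 8 to 10 of the falls and medians between -0.89 and -0.77. In whole tissue, fewer Purkinje cells and less RNA in each of them cannot be told apart.

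Rgs8, which ends G protein signals and is abundant in Purkinje cells, gave 4540, 4986 and 5929 in control arrays 1 to 3 and 2131, 1916 and 2022 in transgenic arrays 1 to 3. The lowest control lay far above the highest transgenic array. Its signal fell to 39.7% of control (log2 -1.33, SE 0.12, limma adjusted p = 4.07e-10). Homer3, which ties metabotropic glutamate receptors to their calcium stores, gave 1287, 1425 and 1557 in the controls and 654, 542 and 555 in the transgenic arrays. Again the groups lay far apart, with a fall to 41.8% (-1.26, SE 0.14, adjusted p = 5.53e-08). Calb1, calbindin, gave 6712, 6906 and 7273 against 3865, 3263 and 3526, a fall to 51.0% (-0.97, SE 0.11, adjusted p = 6.65e-08). Transgenic array 1 held the highest of the 3 values for each of these genes. Ppp1r17, the G-substrate, an inhibitor of protein phosphatases found in Purkinje cells, gave 2859, 2889 and 3160 against 1714, 1407 and 1444 (51.4%, log2 -0.96, SE 0.17, adjusted p = 0.000462). Slc1a6, the glutamate transporter EAAT4 of Purkinje spines, gave 3277, 3126 and 3432 against 1611, 1670 and 1466 (48.5%, -1.04, SE 0.17, adjusted p = 0.000103). These 5 genes passed with each of the 6 arrays left out. A second Ppp1r17 probe set did not pass (-0.64, adjusted p = 0.113).

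Car8, which lowers the affinity of the inositol trisphosphate receptor for its ligand and whose loss causes ataxia, gave 8692, 7212 and 8838 against 5194, 4195 and 2816. The transgenic arrays spread widely but stayed below the controls (48.1%, log2 -1.05, SE 0.24, limma adjusted p = 0.00914). Without control array 1 its adjusted p was 0.0504 and without transgenic array 3 it was 0.10. Pcp2, a modulator of G proteins in Purkinje cells, has 2 probe sets, at -0.83 (adjusted p = 0.0363) and -0.90 (adjusted p = 0.000967). The second of these passed with each array left out, while the first missed with any 1 array left out (adjusted p 0.0537 to 0.179). Lhx1, a LIM homeobox factor of Purkinje cells, fell (-0.64, adjusted p = 0.00345) but missed the threshold without transgenic array 2 (0.0593) or control array 2 (0.0616). Inpp5a, a phosphatase that ends the inositol trisphosphate signal, fell by both of its probe sets (-0.75, adjusted p = 0.00796, and -0.51, adjusted p = 0.0344). The first missed without control array 1 (0.0651) or transgenic array 1 (0.0605), and the second with any 1 array left out (0.0508 to 0.161). The 3 markers that did not pass were Cacna1a, the pore of P/Q calcium channels (-0.36, adjusted p = 0.163), Cacna1g, a T-type calcium channel (-0.71, adjusted p = 0.357), and Rora, a nuclear receptor needed for Purkinje development (-0.31, adjusted p = 0.501).

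Calcium release and its handling overlapped with the Purkinje list. Of 21 genes of metabotropic glutamate signalling and calcium release, 8 fell, 0 rose and 13 did not pass, with a median of -0.26. Leaving out 1 array left 5 to 7 of the falls. Atp2a3, the SERCA3 pump, gave 2261, 2588 and 2870 in the controls and 1238, 1186 and 1121 in the transgenic arrays, a fall to 46.5% (log2 -1.11, SE 0.16, limma adjusted p = 1.69e-05). Atp2a2, the SERCA2 pump, gave 3082, 2899 and 3897 against 1723, 1465 and 1604 (49.1%, -1.03, SE 0.16, adjusted p = 8.07e-05). For both pumps the groups stood apart and the call passed with each array left out, while a second Atp2a3 probe set did not pass (-0.97, adjusted p = 0.0742). Prkcd, protein kinase C delta, gave 1597, 1613 and 1623 against 986, 932 and 925 (59.3%, -0.75, SE 0.15, adjusted p = 0.00253). Ryr1, a ryanodine receptor that releases calcium from the same stores, gave 447, 470 and 386 against 267, 282 and 222 (-0.72, SE 0.18, adjusted p = 0.0281), and missed without any 1 array but control array 3 (0.0505 to 0.142). Not all of the pathway moved down: of the 21 genes, 16 were lower and 5 higher. Gnaq, a G protein subunit downstream of the receptor, was lower without passing (-0.50, adjusted p = 0.374), as was Plcb1 (-0.09, 0.887). Higher without passing were Gna11, a relative of Gnaq (0.42, 0.305), and the inositol trisphosphate receptor Itpr2 (0.52, 0.445).

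Among 18 calcium buffers, sensors, pumps and kinases, 3 fell, 0 rose and 15 did not pass (median -0.18). Pvalb, parvalbumin of Purkinje cells and inhibitory interneurons, gave 13261, 12695 and 13475 in the controls and 8042, 7881 and 7787 in the transgenic arrays. Both groups were tight and stood apart (60.2%, log2 -0.73, SE 0.14, limma adjusted p = 0.000829), while a second Pvalb probe set did not pass (-0.62, adjusted p = 0.0755). Hpcal1, a calcium sensor of the hippocalcin family, gave 8105, 6882 and 6978 against 4691, 3929 and 4411 (59.4%, -0.75, SE 0.15, adjusted p = 0.0018, and 0.0714 in the 6 arrays alone). The other measured members included Vsnl1, a further sensor (-0.63, adjusted p = 0.0554), Camk4, a nuclear calmodulin kinase (-0.58, 0.0803), and Atp2b2, the plasma membrane pump of Purkinje cells (-0.75, 0.29). Calb2, calretinin of granule cells, stood at 0.08 (0.936).

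**Figure D2:**
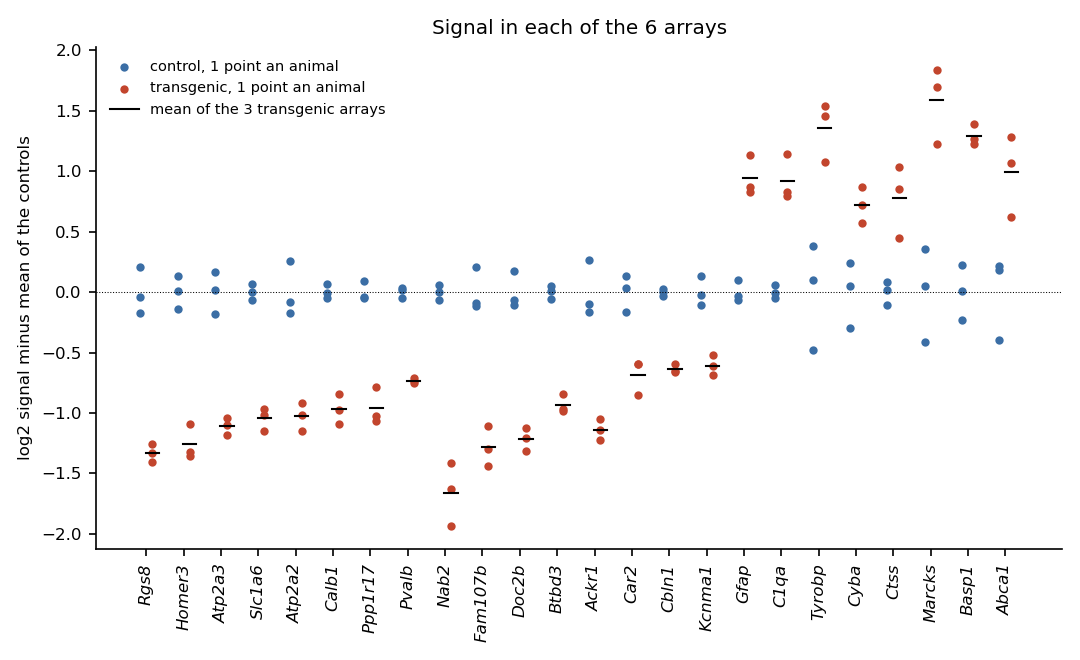
For 24 genes, the log2 signal of each array is drawn relative to the mean of the 3 controls, with controls in blue, transgenic animals in red and a black bar at the transgenic mean. The 16 genes on the left that fell and the 8 on the right that rose have no overlap of the groups.

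Fewer channel and receptor genes outside that pathway passed. Over all 5639 genes measured 1.24% fell and 0.692% rose, and each list count is to be read beside these shares. Of 20 potassium and cation channel genes 1 fell, and of 14 GABA and glycine genes 1 fell. Of 11 voltage-gated sodium and calcium channel genes limma called 0 (smallest adjusted p 0.163), with 5 at an unadjusted p under 0.05. The medians of these lists were -0.28, -0.32 and -0.35, with 17 of the 20 potassium and cation channel genes and 12 of the 14 GABA and glycine genes lower. In the same order, 7, 7 and 4 members were lower with no overlap of the groups and 1, 0 and 1 higher. Of all 5639 genes, 503 were lower and 550 higher with no overlap. Kcnma1, the large-conductance calcium-activated potassium channel, gave 1590, 1504 and 1776 in the controls and 1122, 998 and 1053 in the transgenic arrays (65.6%, log2 -0.61, SE 0.11, limma adjusted p = 0.000768). It passed with each array left out and missed in the 6 arrays alone (0.121). Gabbr1, a subunit of the GABA-B receptor, gave 3906, 3569 and 4099 against 2489, 2686 and 2898 (69.9%, -0.52, SE 0.14, adjusted p = 0.0329), and missed without any 1 array but transgenic array 3 (0.0550 to 0.19). Abcc8, the sulfonylurea receptor of potassium channels, lay just short (-0.51, adjusted p = 0.0594), as did the AMPA receptor subunit Gria3 (-0.75, adjusted p = 0.0642). Of 20 genes of glutamate receptors and their scaffolds, Homer3, Slc1a6 and Cbln1 fell and the median was -0.12, with Gria2 at 0.03 and Gria1 at -0.20.

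Granule cells, the most numerous neurons here, had 14 measured markers, of which 1 fell and 0 rose (median -0.31, 9 lower). With no overlap of the groups, 7 of the 14 were lower and 1 higher, as were 503 and 550 of all 5639 genes. At an unadjusted limma p under 0.05 there were 7. The gene that fell was Cbln1, a synapse organiser that granule cells release onto Purkinje spines, at 6325, 6216 and 6063 in the controls and 4109, 3926 and 3905 in the transgenic arrays. Each group spanned a narrow range (64.3%, log2 -0.64, SE 0.12, limma adjusted p = 0.00143, and 0.0670 in the 6 arrays alone). The mean of the list was between -0.04 and 0.06 in the controls and -0.05, -0.24 and -0.32 in transgenic arrays 1 to 3, so transgenic array 1 lay beside the controls. Gabra6, a GABA-A receptor subunit of granule cells, stood at -0.38 (adjusted p = 0.127) and Neurod1 at -0.56 (0.119). A second Gabra6 probe set, which the list did not use, fell (-0.51, adjusted p = 0.0261) and held without control array 1 or transgenic array 1 (0.0596 to 0.179 without the others).

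Of 28 genes of synaptic vesicles and transmitter release 1 fell, 0 rose and the median was -0.11 (18 lower). That gene was Doc2b, a calcium sensor for release, with 505, 424 and 411 in the controls and 168, 183 and 194 in the transgenic arrays, all well below (43.1%, log2 -1.21, SE 0.22, limma adjusted p = 0.000706, passed with each array left out).

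Cck, the neuropeptide cholecystokinin, gave 1225, 966 and 852 in the controls and 398, 401 and 468 in the transgenic arrays, with no overlap (43.1%, log2 -1.22, SE 0.26, limma adjusted p = 0.00445). Without control array 1, its highest value, the adjusted p was 0.0519. Penk, proenkephalin, which Golgi cells and neighbouring brainstem express, gave 5071, 5448 and 5773 against 3004, 3303 and 3162 (58.3%, -0.78, SE 0.18, adjusted p = 0.00914). Its call was lost without transgenic array 1 (0.0535) or control array 3 (0.0503), and its second probe set did not pass (-0.13, adjusted p = 0.956). These 2 and Ryr1 were the 3 that fell of 14 measured genes in a list drawn up for Huntington's disease striatum (0 rose, median -0.24). Whether each member is lower in that disease was not checked here. Npy stood at -0.09 and Drd2 at -0.22.

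The largest fall among immediate early genes and their regulators was that of a corepressor. Nab2, which binds early growth response (EGR) factors and represses their targets, gave 1188, 1141 and 1091 in control arrays 1 to 3 and 284, 417 and 356 in transgenic arrays 1 to 3. The highest transgenic value was less than any control by a wide margin, with a fall to 31.7% (log2 -1.66, SE 0.20, limma adjusted p = 4.2e-07) that passed with each array left out. Nab1, its paralogue, gave 881, 939 and 967 against 701, 586 and 674 (70.8%, -0.50, SE 0.13, adjusted p = 0.0363), a smaller step that missed the threshold with any 1 array left out (0.0578 to 0.254). Nab1 and Nab2 were the 2 of 33 immediate early genes and regulators to fall, and 0 rose (median -0.11). Jun stood at 0.80 (adjusted p = 0.0846), Fos at -0.84 (0.739), Nr4a1 at -0.52 (0.66) and Junb at -0.63 (0.496).

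Because Nab1 and Nab2 act on EGR factors, the promoters of genes that changed were searched on both strands for the EGR motif GCGGGGGCG, in windows from 250 bases before to 50 after the start of transcription (RefSeq, GRCm38.p6). The motif was in 2.91% of all 32851 promoters, in 6 of 82 promoters (7.32%) of the 57 listed genes that fell and in 2 of 44 (4.55%) of the 34 that rose. Promoters of 1 gene are counted separately: of those 6, 2 belong to Arhgef7 and the others to Chgb, Hpcal1, Nab1 and Slc1a6. With so few matches the shares are a description and were not tested. Shown here are the windows of both corepressors and of the neuronal genes Slc1a6 and Hpcal1, whose values are given above, with the motif in capitals. They lie at chr1:52500399-52500698 (minus strand, motif starting at base -38) for Nab1, chr10:127666654-127666953 (minus strand, no match) for Nab2, chr10:78780246-78780545 (plus strand, -165) for Slc1a6 and chr12:17690559-17690858 (plus strand, -144) for Hpcal1.
Nab1: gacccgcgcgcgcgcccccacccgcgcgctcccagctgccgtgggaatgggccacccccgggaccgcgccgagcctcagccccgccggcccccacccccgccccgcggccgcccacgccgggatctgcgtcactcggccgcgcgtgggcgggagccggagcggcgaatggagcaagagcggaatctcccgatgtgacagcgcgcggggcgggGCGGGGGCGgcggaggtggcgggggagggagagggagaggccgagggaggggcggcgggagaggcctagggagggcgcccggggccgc
Nab2: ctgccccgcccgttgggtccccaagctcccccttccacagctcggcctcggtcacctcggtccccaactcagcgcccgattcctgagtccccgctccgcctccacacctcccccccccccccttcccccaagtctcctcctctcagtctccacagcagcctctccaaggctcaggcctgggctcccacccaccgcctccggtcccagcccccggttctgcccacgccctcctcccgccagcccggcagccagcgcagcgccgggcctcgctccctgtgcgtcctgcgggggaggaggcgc
Slc1a6: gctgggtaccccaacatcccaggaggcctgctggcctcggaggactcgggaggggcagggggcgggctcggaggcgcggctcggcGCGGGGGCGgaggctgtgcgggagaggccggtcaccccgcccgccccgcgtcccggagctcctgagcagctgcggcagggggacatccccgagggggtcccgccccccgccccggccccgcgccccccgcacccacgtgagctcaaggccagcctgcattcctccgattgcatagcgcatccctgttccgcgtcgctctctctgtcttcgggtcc
Hpcal1: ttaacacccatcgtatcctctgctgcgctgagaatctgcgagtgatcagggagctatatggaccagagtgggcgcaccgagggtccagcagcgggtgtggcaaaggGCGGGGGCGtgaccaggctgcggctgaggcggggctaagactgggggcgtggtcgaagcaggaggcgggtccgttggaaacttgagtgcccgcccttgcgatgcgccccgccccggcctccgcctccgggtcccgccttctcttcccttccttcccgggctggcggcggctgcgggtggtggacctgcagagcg
These matches describe the sequence and show no binding. The motif TAGGTCA of ROR receptors was in 2.61% of all promoters, in 0 of the 82 and in 1 of the 44 (2.27%). The NF-Y motif CCAAT was in 37.4% of all promoters, 31.7% of those of genes that fell and 22.7% of those of genes that rose.

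Of 29 transcription regulators linked to polyglutamine in earlier work, 2 rose, 0 fell and the median was 0.12, and both that rose were subunits of the CCAAT-binding factor NF-Y. Nfya gave 411, 301 and 356 in the controls and 686, 694 and 571 in the transgenic arrays (1.79-fold, log2 0.84, SE 0.19, limma adjusted p = 0.0105). Nfyb gave 333, 234 and 347 against 808, 587 and 442 (1.92-fold, 0.94, SE 0.23, adjusted p = 0.0203). Neither pair of groups overlapped. Both missed the threshold without transgenic array 1 (0.0601 and 0.232), transgenic array 2 (0.0695 and 0.0701) or control array 2 (0.103 and 0.184). Outside that list, regulators among the largest single changes are given next. Sin3b, a scaffold of histone deacetylase complexes, gave 376, 297 and 503 against 1006, 771 and 724 (2.10-fold, 1.07, SE 0.22, adjusted p = 0.004), and missed without transgenic array 1 (0.0523) or control array 2 (0.0670). Its second probe set did not pass (0.51, adjusted p = 0.767). Wtap, a partner of the RNA methyltransferase complex, gave 178, 156 and 187 against 389, 392 and 334 (2.03-fold, 1.02, SE 0.22, adjusted p = 0.00567) and passed with each array left out, while its second probe set did not pass (0.42, adjusted p = 0.605). Zbtb16, a zinc finger repressor, gave 176, 161 and 162 against 1063, 358 and 239 (2.55-fold, 1.35, SE 0.34, adjusted p = 0.0242). Its rise was uneven, since transgenic array 1 lay far above the other 2, and without that array the adjusted p was 0.455. Without control array 1, 2 or 3 it was 0.0658, 0.0986 or 0.0722. Bach1, a repressor of haem oxygenase, rose 1.87-fold (0.91, adjusted p = 0.0258) and missed without transgenic array 1 (0.174), transgenic array 2 (0.197) or control array 3 (0.215).

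Of 14 measured microglia and macrophage markers 4 rose, 0 fell and 10 did not pass, with a median of 0.59, 12 higher and 9 of them with no overlap. Over all 5639 genes measured, 39 rose, 2832 were higher and 550 of them had no overlap. The mean of the list was between -0.18 and 0.14 in the controls and 0.43, 0.59 and 0.56 in transgenic arrays 1 to 3. Leaving out 1 array left 2 to 4 of the rises. Tyrobp, the DAP12 adaptor of TREM2 and other microglial receptors, gave 215, 173 and 110 in the controls and 360, 501 and 474 in the transgenic arrays. All transgenic values were above the controls (2.56-fold, log2 1.36, SE 0.29, limma adjusted p = 0.00407), but with control array 3, the lowest, left out the adjusted p was 0.0581. C1qa, the A chain of C1q, gave 702, 738 and 681 against 1242, 1579 and 1267 (1.89-fold, 0.92, SE 0.19, adjusted p = 0.00297) and passed with each array left out. Cyba, a subunit of the phagocyte NADPH oxidase, gave 398, 348 and 270 against 562, 507 and 626 (1.65-fold, 0.72, SE 0.15, adjusted p = 0.00297), and missed without control array 3 (0.0537). Ctss, the lysosomal protease cathepsin S, gave 1079, 1179 and 1235 against 1594, 2407 and 2110 (1.72-fold, 0.78, SE 0.19, adjusted p = 0.0184). Its call was lost without control array 1 or 2 (0.0972 and 0.0621), transgenic array 2 (0.182) or transgenic array 3 (0.0628).

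Markers of microglia that lay short of the threshold included C1qb, the B chain (0.96, adjusted p = 0.0513), Csf1r, the growth factor receptor on which microglia depend (0.55, 0.0741), and Cd68, a lysosomal membrane protein (0.62, 0.101). Cx3cr1, the fractalkine receptor of resting microglia, stood at -0.01 (0.995), Cd14 at 0.08 and Laptm5 at 0.22. Beyond C1qa, 0 of the other 8 complement genes rose (C1qc at 0.53). Of 17 interferon and antigen presentation genes limma called 0 in either direction, also at an unadjusted p under 0.05 (median -0.07), with B2m at 0.28 (adjusted p = 0.823) and H2-D1 at -0.38 (0.725). Of 40 lysosomal genes 3 rose, Ctss, Ctsd and Ctsz, 0 fell and 32 were higher (median 0.11), a count of rises that was 0 to 2 with 1 array left out. Ctsd, cathepsin D, gave 3661, 3222 and 3769 against 4659, 5065 and 5144 (1.40-fold, 0.48, SE 0.13, adjusted p = 0.0363), and missed with any 1 array left out (0.0543 to 0.226).

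Astrocyte genes split. Gfap gave 1015, 923 and 902 in the controls and 1688, 1738 and 2099 in the transgenic arrays, a rise in each animal (1.92-fold, log2 0.94, SE 0.17, limma adjusted p = 0.000462) that passed with each array left out, while its second probe set did not pass (0.77, adjusted p = 0.599). Aldoc, the brain aldolase of astrocytes and a subset of Purkinje cells, gave 13646, 14049 and 12343 against 8887, 7453 and 7578 (59.7%, -0.74, SE 0.18, adjusted p = 0.0203). Its call was lost without control array 1 or 2 (0.0798 and 0.102), transgenic array 2 (0.120) or transgenic array 3 (0.0675). The other 19 of 21 Bergmann glia and astrocyte markers did not pass (median of the list -0.05), among them Aqp4 (0.19), S100b (-0.03), Glul (-0.03), Gdf10 of Bergmann glia (-0.46, adjusted p = 0.378) and Serpina3n, a marker of reactive astrocytes (0.96, 0.362).

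A few apolipoprotein and sterol genes passed, in both directions. Abca1, which loads cholesterol onto apolipoproteins, gave 758, 491 and 741 in the controls and 1607, 1387 and 1013 in the transgenic arrays (1.99-fold, log2 0.99, SE 0.25, limma adjusted p = 0.028), and missed without transgenic array 1 (0.199), transgenic array 2 (0.131) or control array 2 (0.232). Its second probe set did not pass (0.35, adjusted p = 0.480). Apoc1, an apolipoprotein made by glia, gave 230, 52.1 and 171 against 338, 272 and 298 (2.14-fold, 1.10, SE 0.25, adjusted p = 0.00914). Control array 2 lay far below the other 2 controls, and without it the adjusted p was 0.253, as it was 0.0629 without transgenic array 1. Apod, a further apolipoprotein, rose too (0.58, adjusted p = 0.0295). Its call was lost without transgenic array 1 (0.273), transgenic array 2 (0.127), control array 2 (0.172) or control array 3 (0.0878). Idi1, an isomerase of cholesterol synthesis, gave 474, 474 and 581 against 275, 313 and 301 (59.8%, -0.74, SE 0.15, adjusted p = 0.00232). It passed with each array left out and missed in the 6 arrays alone (0.0756). Idi1 and Abca1 were the 2 of 18 sterol genes to pass (median -0.06), with Hmgcs1 at -0.11, Sqle at -0.30 and Apoe at 0.27.

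Of 15 oligodendrocyte and myelin genes 1 fell, 0 rose and the median was -0.02. Car2, carbonic anhydrase 2 of oligodendrocytes and choroid plexus, gave 4023, 3285 and 3755 in the controls and 2026, 2425 and 2420 in the transgenic arrays, well apart (62.3%, log2 -0.68, SE 0.12, limma adjusted p = 0.000618). It passed with each array left out and missed in the 6 arrays alone (0.121). Mobp, a myelin protein, stood at -0.49 (adjusted p = 0.159), and 1 of its other probe sets fell (-0.64, 0.0309) but held only without transgenic array 3 (0.0367, and 0.0581 to 0.184 without the others). Mog stood at 0.03 and Mag at 0.14. Klk6, a protease of oligodendrocytes, gave 201, 169 and 301 against 18.4, 84.2 and 61.9 (28.6%, -1.81, SE 0.43, adjusted p = 0.0135). Transgenic array 1 was below the 18.7 added before taking logs, so the size of the fall depends on that constant, and the adjusted p was 0.197 without that array and 0.0895 without control array 3.

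Membrane and cytoskeletal proteins of growing axons gave the largest rise. Marcks, which binds actin and is phosphorylated by protein kinase C, gave 388, 543 and 676 in control arrays 1 to 3 and 1918, 1741 and 1247 in transgenic arrays 1 to 3. The lowest transgenic value was well above the highest control (3.01-fold, log2 1.59, SE 0.22, limma adjusted p = 1.19e-05). Basp1, a membrane protein of growth cones, gave 1570, 1834 and 1327 against 3682, 3779 and 4135 (2.45-fold, 1.29, SE 0.27, adjusted p = 0.00378). Both passed with each array left out. A second Basp1 probe set, the one used for the list, gave a difference of 0.48 that did not pass (adjusted p = 0.496), so the call rests on 1 of its 2 probe sets. Tmsb10, which binds actin monomers, gave 1726, 1602 and 1712 against 2341, 2593 and 2626 (1.49-fold, 0.58, SE 0.15, adjusted p = 0.0242), and missed without any 1 array but transgenic array 1 (0.0577 to 0.118). These rises were not general to the list: of 34 growth cone and cytoskeleton genes Marcks and Tmsb10 rose, 0 fell and the median was -0.03, with Gap43 at 0.01 and Stmn2, stathmin 2, at -0.37 (0.0877).

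Matrix and vessel genes changed singly. Col18a1, whose product carries endostatin at its end and sits in basement membranes, has 4 probe sets tested, of which 3 fell. The one used for the list gave 1252, 1107 and 1228 in the controls and 637, 602 and 564 in the transgenic arrays (51.0%, log2 -0.97, SE 0.19, limma adjusted p = 0.0018). Another gave 307, 280 and 267 against 104, 27.8 and 18.0 (19.6%, -2.35, SE 0.35, adjusted p = 3.37e-05), with transgenic array 3 below the added constant, and the third stood at -1.11 (adjusted p = 0.0203). The fourth was lower without passing (-1.64, SE 0.51, adjusted p = 0.0949). The third missed without control array 1 or 2 (0.123 and 0.0560) or transgenic array 3 (0.158), and the first and second passed with each array left out, though the second missed in the 6 arrays alone (0.0670). Col18a1 was the only 1 of 35 matrix genes to pass (median -0.07), with Col4a1 at 0.26, Lama2 at -0.05 and Sparc at -0.07. Ackr1, a chemokine-binding receptor of endothelium, red cells and Purkinje cells, gave 985, 726 and 762 against 340, 361 and 384 (45.5%, -1.14, SE 0.17, adjusted p = 5.02e-05, passed with each array left out). Cldn5, claudin 5 of the tight junctions between brain endothelial cells, gave 876, 746 and 629 against 519, 417 and 433 (62.0%, -0.69, SE 0.18, adjusted p = 0.0279). Its call was lost without control array 1 or 2 (0.193 and 0.101), transgenic array 2 (0.172) or transgenic array 3 (0.0805). The other 13 vessel and mural cell genes did not pass (median of the list -0.04), among them Pecam1 (-0.11), Flt1 (-0.08) and Vwf (-0.01).

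Further large falls came in genes of other classes. Fam107b, a relative of the stress-regulated actin-binding protein Fam107a, gave 2227, 1805 and 1779 in the controls and 774, 698 and 883 in the transgenic arrays, the smallest p of all (41.1%, log2 -1.28, SE 0.11, limma adjusted p = 3.33e-10). Btbd3, a BTB-domain protein that directs dendrite orientation in mouse cortex, gave 3304, 3072 and 3208 against 1767, 1629 and 1606 (52.5%, -0.93, SE 0.11, adjusted p = 5.24e-07). Both kept the call with each array left out, and so did Mybpc3, known as a myosin-binding protein of heart muscle, at 595, 729 and 786 against 305, 273 and 287 (42.8%, -1.23, SE 0.25, adjusted p = 0.00297). Rnf19b, a ubiquitin ligase, stood at -1.10 (SE 0.20, adjusted p = 0.000515) and kept it too. Fgf7, a fibroblast growth factor that organises inhibitory synapses in mouse hippocampus, stood at -1.19 (adjusted p = 0.0203) and missed without control array 1 or 2 (0.131 and 0.128), transgenic array 1 (0.0547) or transgenic array 2 (0.174). Epor, the erythropoietin receptor, gave 194, 264 and 325 against 55.3, 69.3 and 69.8 (30.3%, -1.72, SE 0.47, adjusted p = 0.0441) and missed with any 1 array left out (0.0658 to 0.178).

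Among the remaining large rises, Chchd6, a protein of mitochondrial cristae, gave 67.6, 78.7 and 76.7 in the controls and 203, 172 and 199 in the transgenic arrays (2.25-fold, log2 1.17, limma adjusted p = 0.0272). Adcy8, a calcium-stimulated adenylyl cyclase, gave 150, 57.0 and 245 against 366, 287 and 288 (2.20-fold, 1.14, adjusted p = 0.0295). The signals of these genes are low, and the call of Chchd6 was lost with any 1 array left out (0.0645 to 0.116) and that of Adcy8 with any but control array 3 (0.0536 to 0.470). For Csnk2a1, the catalytic subunit of casein kinase 2, the probe set that rose gave 36.7, 22.6 and 30.7 against 74.9, 108 and 73.0 (1.09, adjusted p = 0.0378), while the other 3 lay between 0.04 and 0.21 and did not pass. That call too was lost with any 1 array left out (0.0549 to 0.247).

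No stress or protein quality control gene passed the limma test in 5 lists (0 calls each). These were 41 heat shock proteins and chaperones (median 0.08), 25 endoplasmic reticulum stress genes (-0.14), 32 genes of ubiquitin and autophagy (0.12), 33 proteasome subunits (0.11) and 31 antioxidant genes (0.04). The smallest adjusted p was 0.0523 for Fkbp5, an immunophilin induced by glucocorticoids (1.07), in the first list, and 0.300, 0.0842, 0.317 and 0.266 in the others, with 5, 1, 8, 2 and 2 members at an unadjusted p under 0.05. Of the proteasome subunits 29 of 33 were higher, by at most 0.40. Of 27 ribosomal protein genes 1 rose, 0 fell and 24 were higher (median 0.24). Of these 15 were higher with no overlap, as were 550 of all 5639 genes. The ribosomal gene that rose was Rpl6, at 3979, 3759 and 4147 against 5829, 5420 and 4999 (1.36-fold, log2 0.45, SE 0.12, adjusted p = 0.0491), and it missed with any 1 array left out (0.0520 to 0.260). Of 65 respiratory chain genes limma called 0 (smallest adjusted p 0.251, median 0.05, 1 at an unadjusted p under 0.05), of 28 histone and chromatin genes 0 (smallest 0.105, median 0.11, 1 unadjusted), and of 19 p53 target and cell cycle genes 0 (smallest 0.293, 2 unadjusted). Sin3b, the scaffold of histone deacetylase complexes given above, passed but is outside the histone and chromatin list. Aldoc was the only 1 of 20 glycolytic genes to pass, and Car8 the only 1 of 14 polyglutamine and ataxia genes.

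**Figure D3:**
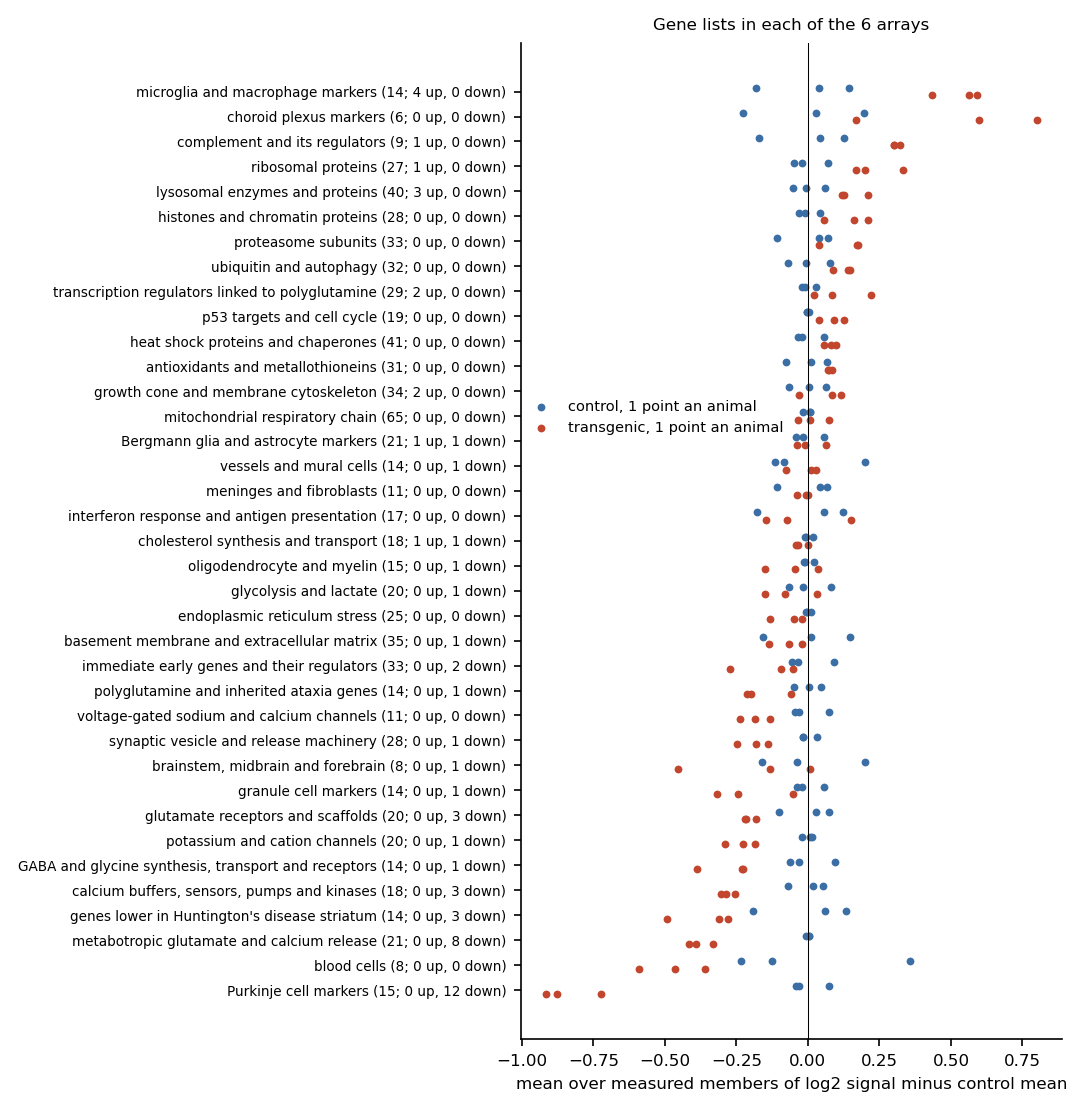
Each row is a gene list, with its members measured and the number that rose and fell in brackets. Points give the mean over the members of log2 signal minus the control mean, in blue for the 3 controls and red for the 3 transgenic arrays. Purkinje cell markers lie between -0.92 and -0.72 and microglia markers between 0.43 and 0.59 in the transgenic arrays.

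Markers of neighbouring tissue and blood were read beside these results, and Penk alone passed among those measured. All 6 choroid plexus markers were higher with 0 called (limma, median 0.64, smallest adjusted p 0.268, 1 at an unadjusted p under 0.05). Their mean was between -0.23 and 0.20 in the controls and 0.60, 0.80 and 0.17 in transgenic arrays 1 to 3, so transgenic array 3 lay within the controls. Ttr, transthyretin of that epithelium, gave 2806, 1385 and 1679 against 3155, 4066 and 2233. All 8 blood cell markers were lower with 0 called (limma, median -0.39, smallest adjusted p 0.103, 1 unadjusted), and haemoglobin Hba-a1 was at 22359 in control array 1 and between 4571 and 9896 in the other 5. The part of these tissues in the falls of Car2, Cldn5, Ackr1 and Epor and in the rises was not tested. Of 11 meningeal and fibroblast genes limma called 0 (smallest adjusted p 0.268, median -0.09, 1 unadjusted), and of 8 brainstem and forebrain genes 1, Penk. At an unadjusted p under 0.05, limma gave 816 of all 7453 probe sets.

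How does the profile at 10 months relate to that at 4 months, when deficits began in A39? The younger groups were 4 transgenic mice, 2 male and 2 female, and 4 controls, 1 male and 3 female. At that age 118 probe sets (1.58%) changed, 34 up and 84 down. Both ages called 64, which is 45.4% of the 10-month and 54.2% of the 4-month calls, and all 64 had the same sign. The falls carried most of the overlap. Of the 84 falls at 4 months 55 passed at 10 months, and their median was -0.71 at the younger and -0.73 at the older age. Of the 34 rises 9 passed again, with medians of 0.62 and 0.47. Looking back from 10 months, 137 of the 141 calls had the same sign at 4 months and 126 were larger at 10 months, a direction that choosing them at 10 months favours. The rises had a median of 0.78 at 10 months and 0.30 at 4 months, the falls -0.75 and -0.60. Across all probe sets the correlation of both differences was 0.41, over probe sets that share arrays, as a description.

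**Figure D4:**
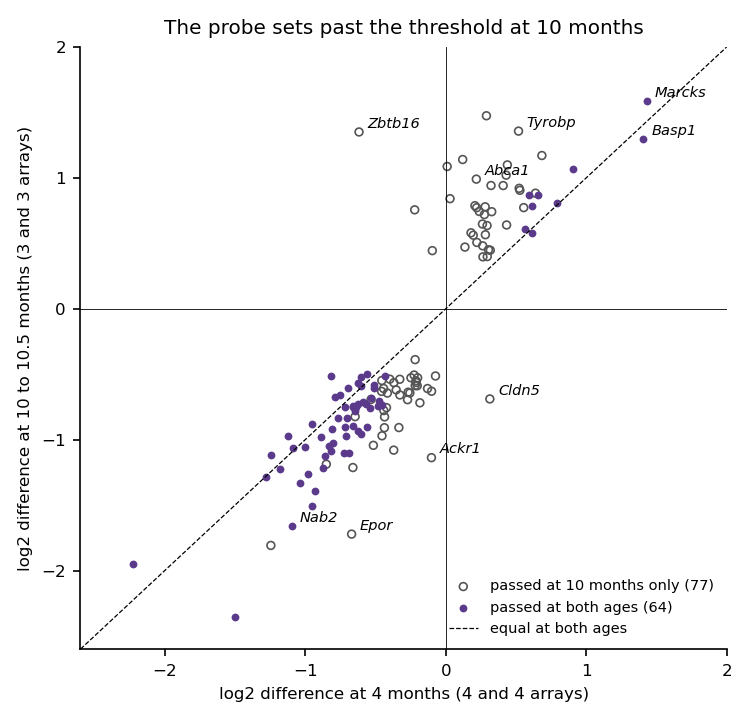
The 141 probe sets that passed at 10 to 10.5 months, by their log2 difference at 4 months (horizontal) and at 10 months (vertical), filled where both ages passed (64) and open where 10 months alone did (77). Most points lie near the dashed line of equality or farther from 0 at 10 months, and Zbtb16, Cldn5 and Ackr1 stand apart.

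Tested directly, 0 of 7453 differences between the ages passed (0%, limma, smallest adjusted p 0.291), while 259 had an unadjusted p under 0.05, 32 of them among the 141. Choosing the 141 by their 10-month effect favours that last count. Purkinje markers had a median of -0.66 with 10 of 15 falling at 4 months, against -0.83 and 12. Microglia markers had a median of 0.15 with 0 of 14 rising at 4 months, against 0.59 and 4. Gfap stood at 0.32 (SE 0.14) and 0.94 (SE 0.17), a difference of 0.62 (SE 0.22, unadjusted p = 0.00745, adjusted p = 0.999). Tyrobp stood at 0.52 (SE 0.25) and 1.36 (SE 0.29), a difference of 0.84 (SE 0.38, adjusted p = 0.999). Ackr1 was at -0.10 (SE 0.15) at 4 months and -1.14 (SE 0.17) at 10 months, a difference of -1.04 (SE 0.23, unadjusted p = 6.55e-05, adjusted p = 0.291). Fam107b, by contrast, was at -1.28 at both ages. Without transgenic array 3 of the older group 1 difference between ages passed. Control 2 of the 4-month group carries the same animal code as control 1 of S46 at 10 months, and each was scanned on the day of the other's group. Whether they were exchanged was not tested, and without both arrays 0 differences between ages passed (limma, 254 at an unadjusted p under 0.05).

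The same age in S46, which carries 142 glutamines with a nuclear localization signal, gives a comparison with the protein directed to the nucleus. Those 3 transgenic and 3 control mice of 10 months were all female, while 5 of the 6 A39 mice were male, so line and sex cannot be told apart here. S46 had 74 calls, 51 of them among the 141 of A39 (36.2% of A39 and 68.9% of S46 calls). Of the 141, 128 had the same sign in S46, with medians of -0.59 for the A39 falls and 0.37 for the rises. Rgs8 (-1.33 in A39 and -1.06 in S46), Homer3 (-1.26 and -1.19), Calb1 (-0.97 and -1.02) and Slc1a6 (-1.04 and -1.16) were close in size, and Marcks (1.59 and 1.51) was too. Purkinje markers had a median of -1.02 in S46.

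Tested directly, 2 of 7453 differences passed (0.0268%, limma), with 214 at an unadjusted p under 0.05, of which 38 were among the 141. That last count, and the smaller medians of the 141 in S46, are favoured by choosing them in A39. Btbd3 fell in A39 (-0.93, SE 0.11) and stood at -0.06 (SE 0.11) in S46, a difference of -0.87 (SE 0.16, adjusted p = 0.0178). Strn, striatin, a calmodulin-binding scaffold, gave 254, 214 and 262 in the A39 controls and 478, 360 and 439 in the transgenic arrays (1.69-fold, log2 0.76, SE 0.18, adjusted p = 0.0134), against -0.59 (SE 0.18) in S46, a difference of 1.35 (SE 0.25, adjusted p = 0.0178). The rise of Strn in A39 missed without transgenic array 1 (0.112), transgenic array 3 (0.0520) or control array 2 (0.107). With sex as a covariate 5 differences passed, and in the arrays of these groups alone neither Btbd3 nor Strn did. Without the S46 control and the 4-month A39 control that share an animal code, the difference of Btbd3 passed and that of Strn did not. None (0 by limma, 186 to 310 unadjusted) passed without A39 control array 1 or 2, A39 transgenic array 3 or S46 transgenic array 2. Other genes that fell in A39 had values near 0 in S46, without a difference that passed: Car2 at 0.04 (difference -0.72, adjusted p = 0.263), Idi1 at -0.06 (-0.68, 0.82) and Ackr1 at -0.19 (-0.94, 0.407). Of the glial genes, Gfap was at 0.18 in S46 (difference 0.76, 0.82) and Cyba at -0.13 (0.85, 0.263).

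A61 is the other NES line with 142 glutamines, profiled at 8 months in 4 transgenic males and 4 controls, 3 male and 1 female. It had 19 calls, 14 of them shared (9.93% of the A39 and 73.7% of the A61 calls), and 132 of the 141 had the same sign, with medians of -0.35 and 0.26. Of the controls 3 are titled A39 though described as A61. Ages and arrays differ, so the values stand side by side: Rgs8 -1.33 in A39 and -0.74 in A61, Homer3 -1.26 and -0.57, Nab2 -1.66 and -0.67, Marcks 1.59 and 1.17, Gfap 0.94 and 0.83. Tested directly, 0 of 7453 differences passed (0%, limma, smallest adjusted p 0.281), and 323 had an unadjusted p under 0.05, of which 64 were among the 141. Again, choosing the 141 in A39 favours that last count and the smaller medians in A61. Without A61 transgenic array 2 or 3, 1 difference passed. For Purkinje markers the A61 median was -0.35.

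**Figure D5:**
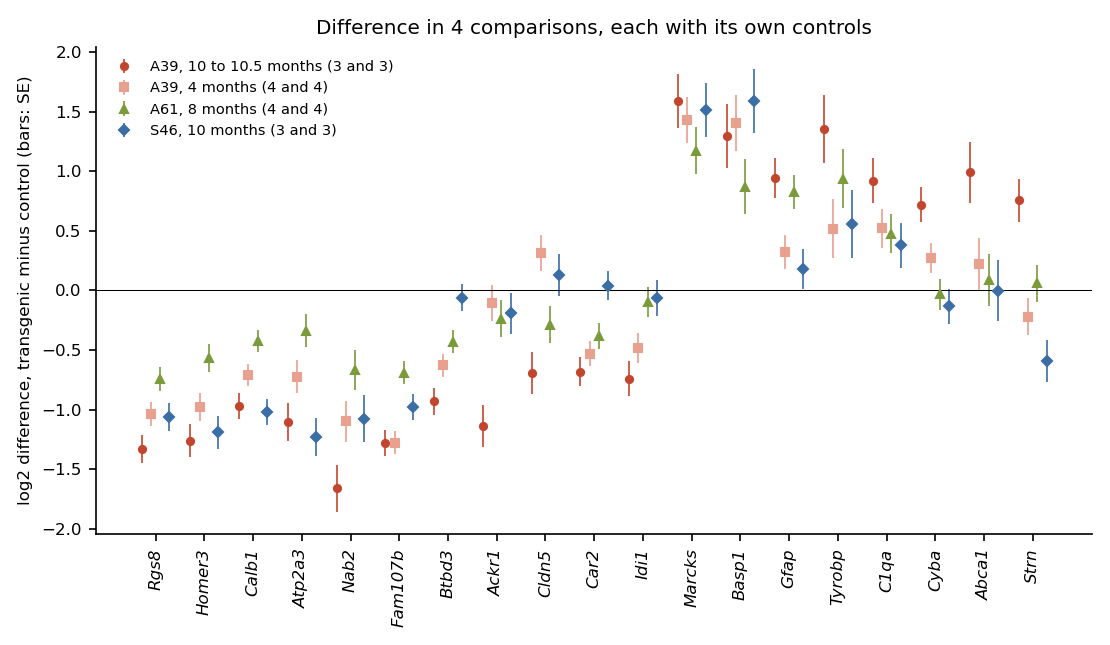
Log2 differences between transgenic and control arrays, with bars of 1 SE, for 19 genes in A39 at 10 to 10.5 months (red circles), A39 at 4 months (pink squares), A61 at 8 months (green triangles) and S46 at 10 months (blue diamonds). Rgs8, Homer3 and Calb1 lie below 0 in all 4 comparisons, while Btbd3 (-0.06) and Car2 (0.04) lie near 0 in S46 and Ackr1 stands at -1.14 in A39 at 10 months and between -0.24 and -0.10 in the others.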

How the data were processed

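The authors deposited 1 linear signal intensity per probe set and array, made with MAS5 per the submitters' processing notes, and its version is not given in the sources used here. Each array has a 2% trimmed mean of 500.2 to 500.3 in the deposited intensity values. The deposited text records of the instruments served only to group the arrays by scan day, chip lot and station. Groups came from the titles, and ages and sexes from the descriptions. The exceptions are the A61 controls titled A39 and the S46 transgenic arrays of 3.5 months, whose titles give another age. Those were grouped by their descriptions.

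From the deposited intensities, log2(signal + 18.7) was taken, the constant being the 10th percentile of all signals, so folds and percentages of control understate changes of dim genes. Control probe sets and those with a mean below the 40th percentile over the 48 arrays were left out, leaving 7453 of 12488 probe sets. Symbols came from GEO's platform annotation, updated by gene identifier (10839 matched). Of all probe sets 10855 have 1 symbol, 396 several and 1237 no listing, and those without a single symbol are unnamed. A gene list uses each gene's probe set with the highest mean signal. limma 3.58.1 in R 4.3.3 fitted 14 group means to all 48 arrays, with 34 residual degrees of freedom, and p-values are two-sided with Benjamini-Hochberg adjustment over the 7453 within each comparison. Differences between effects were contrasts of the same fit. The fit was run on simulated data with independent normal noise for each probe set and array, without array, litter or sex effects. Such data cannot show how far the calls depend on single animals. Array values show 3 animals a group, and this number limits the precision.

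Named genes were the 15 largest rises and falls past the threshold with no overlap, up to 6 members of each list, up to 8 of each sign in each difference, Htt, tissue markers, and 3 genes on each side of the threshold. Other list members named as not passing, and second probe sets, were chosen after their values were seen. The groups and lists were chosen with earlier results of these data known. Replicate numbers do not pair the animals: deviations of same-numbered arrays correlated at 0.0246, -0.110 and -0.343. Alternatives covered normalization, constant, filter, covariates, the replicate block, left-out arrays and the 6 arrays alone. Xist and genes of the Y chromosome were not named, while other genes of the X chromosome were not left out.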

Additional observations from a re-analysis of the deposited data

Results flagged for a closer look

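A total of 4 genes had effects in A39 at 10 months that stood against those of another age or line. Btbd3 was flagged by the test of the difference from S46 at 10 months, -0.87 on the log2 scale (limma adjusted p = 0.0178). Strn was flagged by the same test, with a difference of 1.35 (adjusted p = 0.0178), being higher in the 3 A39 transgenic arrays and lower in S46. Zbtb16 moved up in every A39 transgenic array at 10 months and down in every one at 4 months, a difference of 1.97 that did not pass when tested (adjusted p = 0.291). Cldn5 was lower in every transgenic array of A39 at 10 months and higher in every one of S46, a difference of -0.82 that did not pass (adjusted p = 0.82).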

How the results depend on the processing

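No sign reversed among the 59 named probe sets past the threshold under any alternative run. Where the groups did not overlap, leaving out an array or changing the constant could not reverse a sign. Of the 59, 28 passed with each of the 6 arrays left out, 24 under every other alternative, 22 under both and 26 in the 6 arrays alone. The 141 calls became 90 with age in months as a covariate (19 higher, 71 lower) and 42 with the 6 arrays alone (7 higher, 35 lower), a fit with fewer arrays behind its variance, and 80 to 121 with 1 array left out. They were 98 with no filter, over 12422 probe sets, and between 123 and 164 under the remaining settings. With the replicate number as a block, which does not pair the animals, there were 123 calls, 108 of them among the 141. The 2 differences from S46 became 1 with the 60th percentile filter, age as a covariate, scan day as a block, or without the A39 4-month and S46 10-month controls that share an animal code (chosen after seeing the data), 5 with sex as a covariate, 1 in the compared groups alone, where 0 of the 2 passed and another probe set did, and 0 to 2 with 1 array left out. The 0 differences from A61 became 2 after quantile normalization, 4 in the compared groups alone and 0 to 1 with 1 array left out. The 0 differences between ages became 0 to 1 with 1 array left out. Of 666 list medians 38 moved by more than the spread between replicates. The causes were not tested. Dim probe sets, such as those of Klk6, Csnk2a1 and Chchd6, have the least certain sizes.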

Other observations

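Further genes, chosen after their values were seen from those that passed with each array left out, belong to no list described above. Washc2, a subunit of the WASH complex of endosomes, gave 3225, 3396 and 2794 in control arrays 1 to 3 and 1675, 1628 and 1445 in transgenic arrays 1 to 3 (log2 -0.98, limma adjusted p = 7.95e-07). Crhr1, the receptor of corticotropin-releasing hormone, gave 652, 837 and 724 against 357, 371 and 414 (-0.92, adjusted p = 0.00383). Nptx1, a neuronal pentraxin that clusters AMPA receptors, gave 2254, 2045 and 2593 against 1259, 1119 and 1258 (-0.91, adjusted p = 0.00445). None of these groups overlapped. Among the rises, Pgrmc1, a haem-binding membrane protein, gave 2282, 2206 and 2225 against 3785, 3690 and 3111 (0.65, adjusted p = 6.59e-05). Alcam, an adhesion molecule, gave 193, 197 and 257 against 393, 450 and 376 (0.87, adjusted p = 0.000842), and Pld3, a lysosomal enzyme, gave 566, 595 and 713 against 862, 1118 and 1206 (0.74, adjusted p = 0.00413). These 3 rises missed in the 6 arrays alone (0.103, 0.0670 and 0.158).

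Transgenic array 1 held the highest value for several genes known to be induced by glucocorticoids, also chosen after their values were seen. Fkbp5 gave 113, 144 and 128 in the controls and 533, 247 and 179 in transgenic arrays 1 to 3 (log2 1.07, limma adjusted p = 0.0523). Sgk1 gave 1079, 1170 and 1098 against 2791, 2164 and 1162 (0.77, adjusted p = 0.262), and Cebpd gave 202, 159 and 140 against 403, 327 and 205 (0.80, adjusted p = 0.291). Of these 3 and Zbtb16, described above, Zbtb16 alone passed the test.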
